A study of Homo sapiens with 6 samples.

Results

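The genes described here encode 9 factors that hold the adaptor protein STING in the endoplasmic reticulum (ER), carry it to the Golgi, bring it back or modify it. They were chosen by function and matched by gene name to the deposited tables, which list 42307 genes. Each of the 9 names matched 1 row. The RNA came from U251, an established human glioblastoma cell line, which the labels give as wild type and which was grown in medium with 10% fetal bovine serum. Cells transfected with a STING overexpression plasmid (3 libraries) were compared with cells transfected with a negative control plasmid (3 libraries), each at 1 ug per well and harvested on day 3. Both groups were therefore transfected, and neither is an untouched culture. The sources used here do not give the promoter of the plasmid or the share of cells that took it up.

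STING is a membrane protein that waits in the ER until it binds a cyclic dinucleotide, the messenger made by the DNA sensor cGAS. It then leaves the ER in vesicles coated with COPII, reaches the Golgi, is palmitoylated there and recruits the kinase TBK1. SAR1A and SAR1B are the small GTPases that start the COPII coat, and SEC24C is a coat subunit that selects cargo. STIM1, the calcium sensor of the ER, retains STING there. TMED2 is a p24 cargo receptor and RHBDF2 (iRhom2) a catalytically inactive rhomboid that ties STING to the translocon. SURF4 is a cargo receptor that links STING to COPA, the alpha subunit of the COPI coat that returns proteins to the ER. ZDHHC3 is a Golgi palmitoyltransferase for which STING is a substrate. In the gene annotation of the authors' deposited table, the term endoplasmic reticulum is carried by 8 of the 9 genes. In it 6 carry Golgi membrane and 5 carry ER to Golgi vesicle-mediated transport.

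SAR1A and SAR1B are paralogs, so the likeness of their transcripts bears on how far their counts can be told apart. The first 90 coding bases of each are shown 5′ to 3′ from GENCODE v29 transcripts, with the bases that differ in capitals.
SAR1A: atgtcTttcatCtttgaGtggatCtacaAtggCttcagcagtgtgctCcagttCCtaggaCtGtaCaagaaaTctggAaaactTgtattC
SAR1B: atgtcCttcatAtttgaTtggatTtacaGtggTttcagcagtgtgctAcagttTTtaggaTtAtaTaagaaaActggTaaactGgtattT
These stretches differ at 16 positions. Over the whole coding sequence of 594 bases in each gene, 462 positions (77.8%) were identical, and the longest identical run was 17 bases. The coding part makes up 9.93% of the longest SAR1A transcript and 8.89% of the longest SAR1B transcript. With that run, the aligned coding parts share no window of 50 bases. Of all windows of 50 bases in the longest transcript, 2.19% for SAR1A and 1.61% for SAR1B also occurred in a transcript of another gene, on either strand. The genes with the most such windows were SLIRP, C19orf25 and FARP2 for SAR1A, and DENR, PRR19 and AC008946.1 for SAR1B. By the same measure SEC24C had 41.7%, all in AC022400, and TMED2 had 9.44%, all in AC055713.1. The rest of the 9 genes had 0.72% or less. The sources used here do not give the read length or how reads that fit several genes were counted.

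The deposited counts summed to between 71498790 and 76566375 per library, so a gene at 0 counts could lie at up to 3 counts, or 0.0392 to 0.042 CPM (counts scaled to library size), by counting error alone. Library totals did not separate the groups, and the share of mitochondrial counts was 3.73% to 4.005% in the STING plasmid libraries against 4.32% to 4.46% in the control plasmid libraries. Of 9 astrocyte and glioma markers 7 averaged at least 1 FPKM. The 9 summed to 655 to 672 FPKM in STING plasmid libraries and 679 to 717 FPKM in control plasmid libraries. Most of this was VIM, at a mean of 472 FPKM with the STING plasmid and 494 FPKM with the control plasmid. GFAP averaged 1.77 and 3.18 FPKM, while S100B and OLIG2 stayed at or below 0.16 FPKM. The 3 endothelial markers summed to at most 0.31 FPKM in any library. Of the 3 neuronal markers SYT1 reached 4.54 to 4.85 FPKM, and of the 3 epithelial markers KRT8 reached 0.83 to 1.21 FPKM, with the others of both lists below 1 FPKM. Of the 5 immune markers only CD68 averaged at least 1 FPKM (12.2 in the STING plasmid and 8.68 in the control plasmid group), and the 5 summed to 8.99 to 15.5 and 8.39 to 11.5 FPKM. The part of these differences in the results below was not tested. The labels do not say that replicates were separate cultures, so the p-values speak of the spread among these 6 libraries, part or all of which may be technical.

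STING1, the gene carried by the plasmid, was counted 4327, 4226 and 3596 times in STING plasmid libraries 1, 2 and 3, against 2660, 2628 and 2360 times in control plasmid libraries 1, 2 and 3. Every STING plasmid library was above every control plasmid library. Its log2 fold change was 0.60 (95% interval 0.43 to 0.77, adjusted p = 0.00221 in edgeR), and limma on log2(FPKM + 1) did not call it (adjusted p = 0.0824). The fold of 1.51 is for plasmid and chromosomal transcripts together, as the counts do not separate them.

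Per length of transcript the 9 genes span a wide range of levels. In deposited FPKM, a read count scaled to gene length and library size, SURF4 was highest at 97.7 ± 5.17 with the STING plasmid and 99.9 ± 2.27 with the control plasmid (SD, n = 3 in each group here and below). TMED2 followed at 57.3 ± 1.23 and 55.1 ± 2.22 FPKM, and COPA at 51.8 ± 3.01 and 48.3 ± 1.67 FPKM. These neighbours in the order overlap, since TMED2 ran from 53.7 to 58.2 and COPA from 46.6 to 54.4 FPKM over the 6 libraries. SEC24C stood apart at 36.7 ± 0.486 and 36.7 ± 0.734 FPKM, as did SAR1A at 21.8 ± 0.687 and 19.6 ± 0.495 FPKM. STIM1 (8.49 ± 0.399 and 8.55 ± 0.150 FPKM) and SAR1B (8.73 ± 0.434 and 7.97 ± 0.111 FPKM) overlapped. ZDHHC3 lay just under them at 7.20 ± 0.0964 and 7.36 ± 0.180 FPKM, between 7.09 and 7.5 FPKM over all libraries. RHBDF2 was lowest in every library, at 1.15 ± 0.0777 and 1.34 ± 0.218 FPKM.

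**Figure D1:**
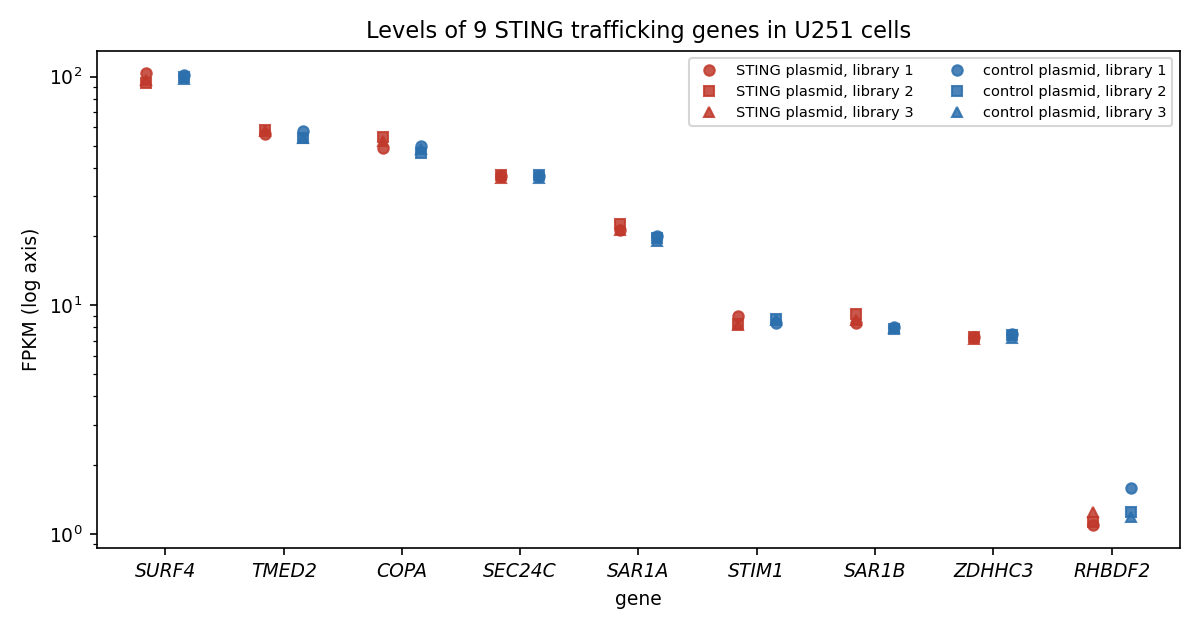
FPKM (log axis) of the 9 genes in each library, with STING plasmid libraries in red left of control plasmid libraries in blue; each point is 1 library. SURF4 sits between 93.4 and 103 FPKM and RHBDF2 between 1.09 and 1.59 FPKM, and the groups lie close together for every gene.

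The order in the middle of this range rests on the gene length behind FPKM. The values imply a length of 14509 bases for ZDHHC3, whose longest GENCODE v29 transcript has 3226 bases. Per kilobase of that longest transcript, a measure chosen after the data were seen, ZDHHC3 had 32.5 CPM with the STING plasmid and 33.0 with the control plasmid, and moved to place 5 of 9, above SAR1A at 27.3 and 24.4. SURF4, TMED2, COPA and SEC24C kept places 1 to 4 and RHBDF2 place 9 on both measures.

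None of the 9 factors passed the test for a change with the STING plasmid. At an adjusted p under 0.05 in edgeR (quasi-likelihood, Benjamini-Hochberg over 21679 genes) 0 of the 9 were called, beside 1.49% of all genes tested (0.604% higher and 0.89% lower), and DESeq2 and limma-voom called 0 as well. SAR1A and SAR1B, 2 of the 9, had an unadjusted p under 0.05, as did 14.4% of all genes. The estimate was positive for 4 of the 9 and negative for 5, with a median log2 fold change of −0.022 beside 0.001 over all genes tested. With scaling by total counts SEC24C and STIM1 turned positive (0.0085 and 1e-04). The genes with the largest estimates were SAR1A, SAR1B and RHBDF2, and the interval of each other gene lay between −0.15 and 0.18. In RNA from whole cultures, fewer cells with a transcript and less of it per cell cannot be told apart.

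At the ER exit step, the pair of COPII GTPases had groups that did not overlap, as did 19.9% of all genes tested. Neither passed the adjusted test. SAR1A (ENSG00000079332, chromosome 10, 70147289 to 70170523, minus strand, in coordinates that match GRCh38) had 161, 166 and 159 CPM in STING plasmid libraries 1, 2 and 3, against 149, 150 and 145 CPM in control plasmid libraries 1, 2 and 3. The groups did not overlap, and the lowest STING plasmid library lay 1.06 times above the highest control plasmid library. The log2 fold change was 0.13 (SE 0.044, 95% interval 0.037 to 0.22), a 1.09-fold difference, and the edgeR adjusted p was 0.166. SAR1B (ENSG00000152700, chromosome 5, 134601149 to 134649271, minus strand) had 97.8, 105 and 101 CPM in STING plasmid libraries, against 93.8, 93.1 and 94.7 CPM in control plasmid libraries. These groups did not overlap either, with a gap of 1.03 times. Its log2 fold change was 0.11 (SE 0.047, 95% interval 0.0089 to 0.21), and the edgeR adjusted p was 0.296. These were the only 2 of the 9 whose groups did not overlap, both higher, where 19.9% of all genes tested did not overlap and 10.1% did so with the STING plasmid higher.

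**Figure D2:**
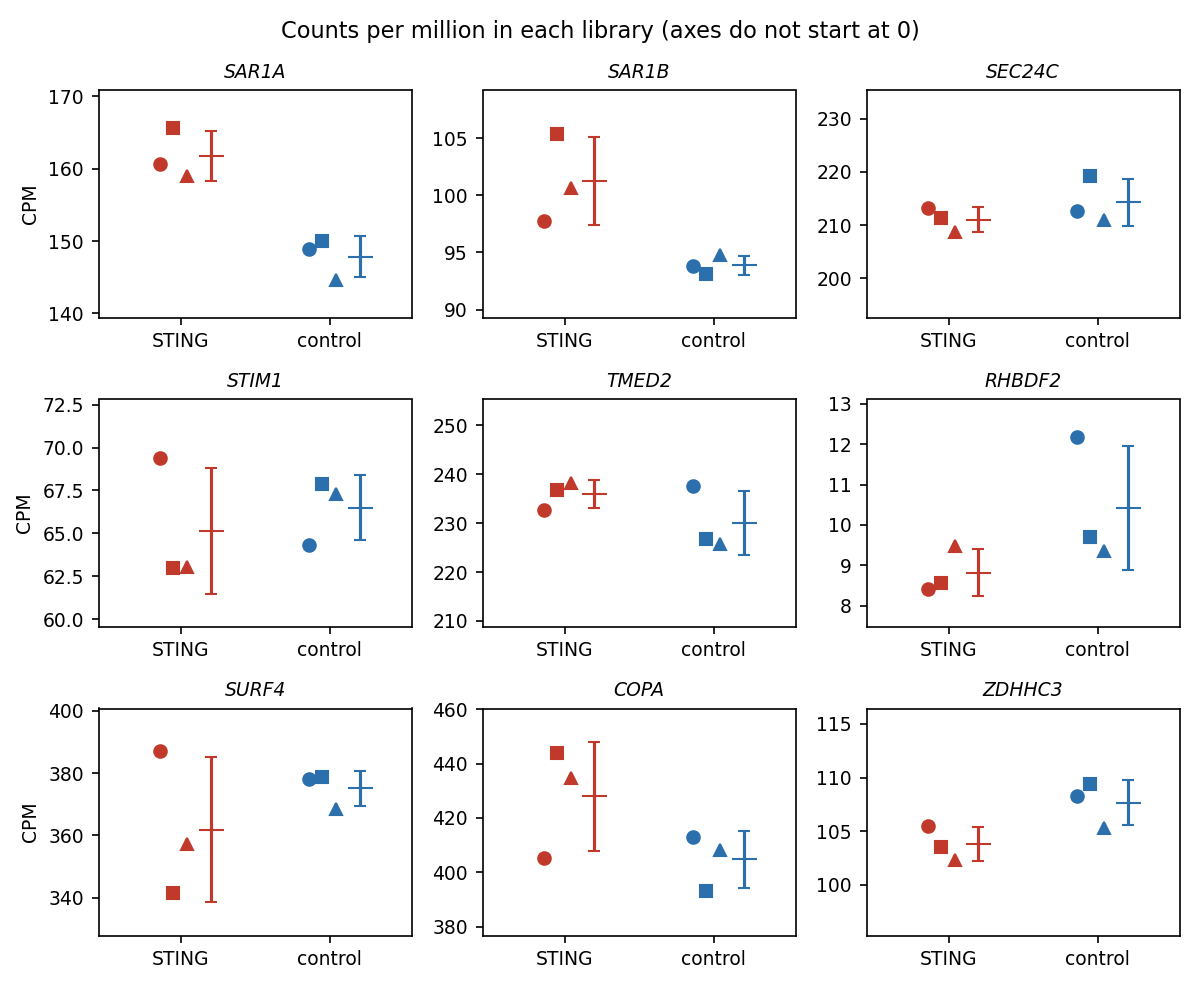
CPM of each gene in the 3 STING plasmid libraries (red, left) and the 3 control plasmid libraries (blue, right), with the mean and SD beside the points; marker shapes give the library number, and the axes do not start at 0. SAR1A and SAR1B separate the groups without overlap, as do 19.9% of all genes tested, and the other 7 genes do not.

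The balance between the GTPases did not differ beyond the spread between libraries. SAR1A made up 72.0%, 71.1% and 71.2% of the summed FPKM of SAR1A and SAR1B in STING plasmid libraries 1, 2 and 3, against 71.3%, 71.6% and 70.5% in control plasmid libraries (two-sided exact permutation p = 0.6). The difference of 0.302 percentage points was smaller than the SD of 0.498 and 0.568 percentage points within the groups. The size of the share rests on the lengths behind FPKM, 7481 bases for SAR1A and 11688 for SAR1B. Their longest transcripts have 5981 and 6682 bases. Per kilobase of these, SAR1A had 27.3 CPM with the STING plasmid and 24.4 with the control plasmid, and SAR1B 15.3 and 13.9. SEC24C (ENSG00000176986, chromosome 10, 73744372 to 73772161, plus strand) had 213, 211 and 209 CPM in STING plasmid libraries, against 213, 219 and 211 CPM in control plasmid libraries. Its groups overlapped, with a log2 fold change of −0.022 (95% interval −0.11 to 0.068).

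The SAR1B gene model begins inside a neighbour of the same coat. The 487 bases at its 5′ end overlap SEC24A, another cargo-selecting subunit, which runs in the opposite direction from 134648785 to 134727909 on chromosome 5. Exons of the pair share 385 bases, or 3.51% of the exonic bases of SAR1B, and the sources used here do not say whether counting used strand. SEC24A rose with the STING plasmid, to 131, 133 and 131 CPM in the 3 libraries, against 111, 115 and 113 CPM in the control plasmid libraries, with a log2 fold change of 0.22 (SE 0.044, adjusted p = 0.0218 in edgeR). It kept the call without STING plasmid library 1 and lost it without each of the other 5 libraries (adjusted p of 0.0751 to 0.144). The sum of SAR1B and SEC24A and a small RNA gene at 0 counts had a log2 fold change of 0.17 (adjusted p = 0.0568).

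The 250 bases before and 50 after the start of each gene, from RefSeq on GRCh38.p14, were searched on both strands for elements of the unfolded protein response, which is known to induce COPII genes, namely ERSE, ERSE-II and the XBP1 core (TGACGTGG), and for 3 common promoter motifs. All 9 genes had a window, and 1 of them, COPA, held the XBP1 core, which occurred in 0.729% of 35116 windows. ERSE and ERSE-II, which contain the CCAAT letters or their reverse, matched 0 of the 9 genes and 0.0769% and 0.0541% of all windows. The CCAAT box matched 3 genes (34.6% of all windows), the GC box GGGCGG matched 8 (45% of all windows) and the ETS motif CCGGAAGT matched 3 (4.14% of all windows). A gene with more than 1 window was counted if any window matched, while the shares are per window, so the counts and shares are not strictly alike. The window of SEC24A also held the XBP1 core, shown with its neighbours because it lies inside the SAR1B model and before the start of SEC24A, at chr5:134648595-134648624, plus strand, with the core in capitals.
SEC24A: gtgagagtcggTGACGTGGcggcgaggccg
Neither match overlapped another motif searched, and a match describes the letters only.

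STIM1, which retains STING in the ER, did not pass the test while STING1 rose. STIM1 (ENSG00000167323, chromosome 11, 3854527 to 4093209, plus strand) had 69.4, 63.0 and 63.0 CPM in STING plasmid libraries 1, 2 and 3, against 64.3, 67.9 and 67.3 CPM in control plasmid libraries. STING plasmid library 1 was the highest of all 6 and the other STING plasmid libraries were the lowest, so the groups overlapped (log2 fold change −0.030, SE 0.054, adjusted p = 0.884 in edgeR). STING1 FPKM per STIM1 FPKM was 1.20, 1.29 and 1.11 in STING plasmid libraries, against 0.834, 0.809 and 0.688 in control plasmid libraries. Every STING plasmid library had the higher ratio (two-sided exact permutation p = 0.1, the smallest that 3 against 3 libraries allow). The ratio of STING1 to the sum of SAR1A and SAR1B was likewise higher, at 0.335 ± 0.0293 against 0.240 ± 0.0192 (SD, n = 3, two-sided exact permutation p = 0.1). STING1 is the gene on the plasmid and separated the groups by itself. Both ratios therefore restate its rise and are no separate result about STIM1 or the GTPases.

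Among the adaptors of forward transport, TMED2 overlapped between groups and RHBDF2 varied most. TMED2 (ENSG00000086598, chromosome 12, 123584533 to 123597342, plus strand) had 233, 237 and 238 CPM in STING plasmid libraries, against 238, 227 and 226 CPM in control plasmid libraries (log2 fold change 0.036, SE 0.043, adjusted p = 0.800 in edgeR). RHBDF2 (ENSG00000129667, chromosome 17, 76470891 to 76501790, minus strand) was counted 647, 662 and 721 times in STING plasmid libraries, against 894, 688 and 706 times in control plasmid libraries. The level in control plasmid library 1, 12.2 CPM, stood above the other 5 libraries, which ran from 8.42 to 9.71 CPM. The log2 fold change of −0.24 had a wide interval (SE 0.12, 95% interval −0.49 to 0.016, adjusted p = 0.388 in edgeR), and without control plasmid library 1 it was −0.11. The within-group coefficient of variation was 12% for RHBDF2 and 1.67% to 4.60% for the other 8 genes.

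The retrieval factors SURF4 and COPA had estimates of opposite sign. SURF4 (ENSG00000148248, chromosome 9, 133361450 to 133376166, minus strand) had 387, 341 and 357 CPM in STING plasmid libraries 1, 2 and 3, against 378, 379 and 369 CPM in control plasmid libraries. STING plasmid library 1 was above all control plasmid libraries and the other STING plasmid libraries were below them (log2 fold change −0.052, SE 0.048, adjusted p = 0.718 in edgeR). COPA (ENSG00000122218, chromosome 1, 160288594 to 160343273, minus strand) had 405, 444 and 435 CPM in STING plasmid libraries, against 413, 393 and 408 CPM in control plasmid libraries. Here STING plasmid libraries 2 and 3 were above all control plasmid libraries and library 1 was among them (log2 fold change 0.081, SE 0.046, adjusted p = 0.462 in edgeR). The FPKM ratio of COPA to SEC24C, coats of opposite direction, was 1.41 ± 0.0771 with the STING plasmid and 1.32 ± 0.0589 with the control plasmid (SD, n = 3, two-sided exact permutation p = 0.3).

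The palmitoyltransferase ZDHHC3 (ENSG00000163812, chromosome 3, 44915257 to 44976182, minus strand) had 105, 103 and 102 CPM in STING plasmid libraries, against 108, 109 and 105 CPM in control plasmid libraries. The groups met at STING plasmid library 1 and control plasmid library 3, which differed by less than 1 CPM, and the log2 fold change was −0.053 (SE 0.045, adjusted p = 0.679 in edgeR). Its model overlaps EXOSC7 by 942 bases without a shared exonic base. SEC24C shares 42.9% of its exonic bases with the model AC022400 on the opposite strand, which held 6.95% as many counts as SEC24C. Summed with the models that overlap them, 0 of the 9 genes were called.

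**Figure D3:**
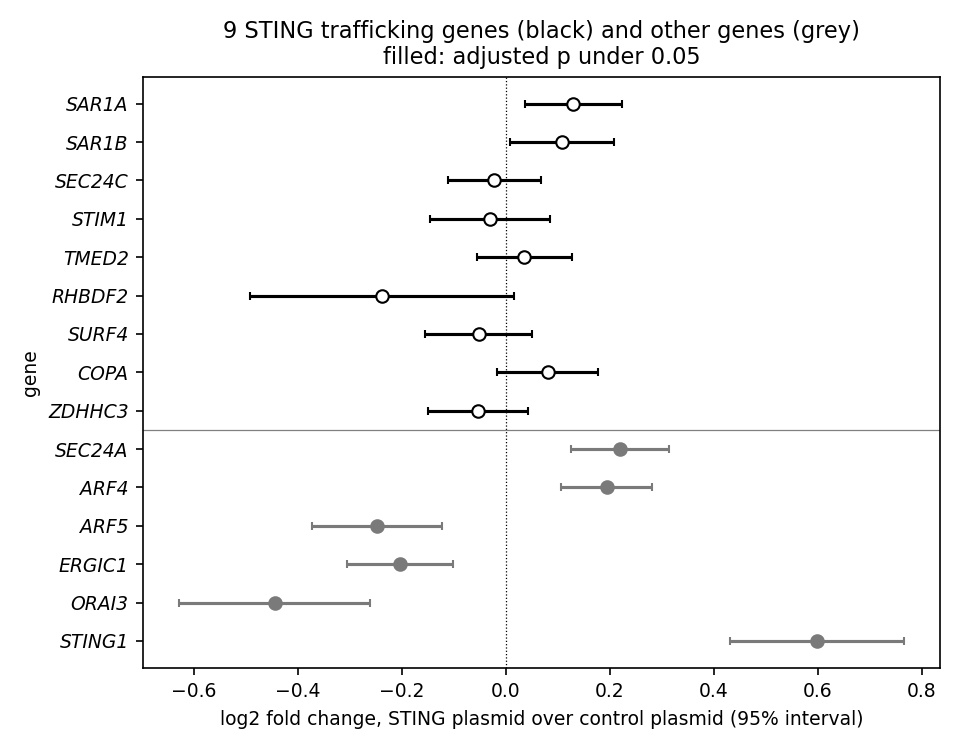
Log2 fold change, STING plasmid over control plasmid, with its 95% interval (n = 3 libraries per group), for the 9 factors in black and for STING1 and the 5 called genes of the related groups in grey; filled points passed an adjusted p of 0.05 in edgeR. All 9 black points are open, and those of SAR1A and SAR1B have intervals above 0.

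The signs of the estimates lined up with base composition. The 4 genes with a positive estimate had a GC content of 39.0% to 46.3% in their longest transcript, and the 5 with a negative estimate 53.0% to 62.9% (Spearman rho −0.85 over 9 genes that share the same 6 libraries, a description). Over all genes with a GC content the median was 47.9%, and it was 44.3% in the genes called higher and 56.3% in those called lower. The slope of log2 level on GC content, per 10 percentage points, was 0.032, −0.0676 and −0.0394 in STING plasmid libraries 1, 2 and 3, against 0.0138, 0.0437 and 0.0176 in control plasmid libraries. The part of base composition in the results was not tested beyond offsets. With offsets per library for GC content and length the log2 fold changes of SAR1A and SAR1B were 0.11 and 0.087 and that of RHBDF2 was −0.15. Those of SEC24C and STIM1 then changed sign, to 0.023 and 0.035, and 0 of the 9 genes were called.

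**Figure D4:**
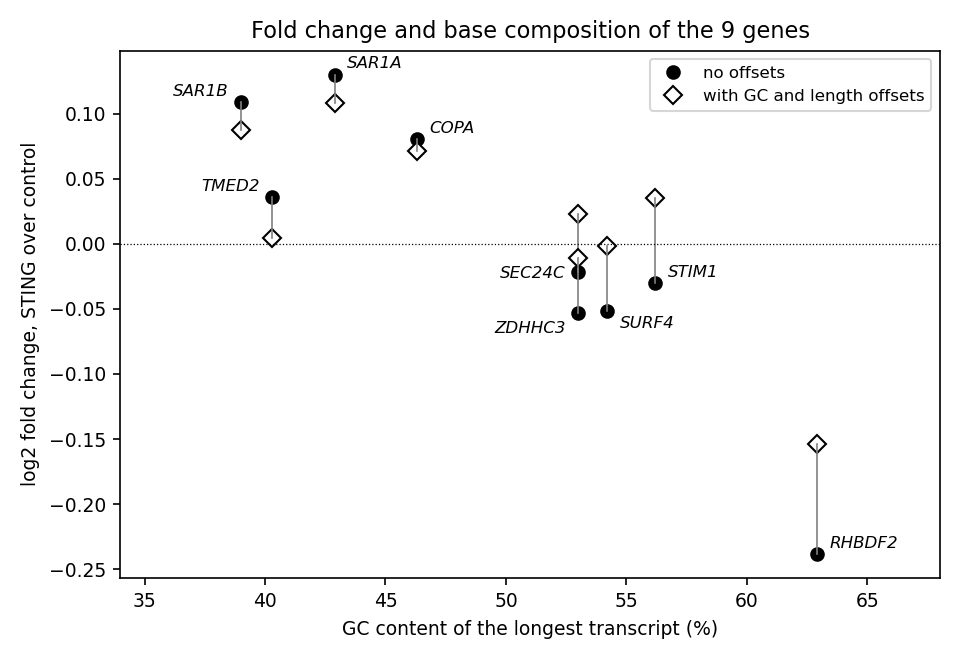
Log2 fold change of the 9 genes, STING plasmid over control plasmid, against the GC content of the longest transcript in percent, without offsets (filled) and with offsets for GC content and length (open diamonds). The offsets move SEC24C and STIM1 above 0 and leave SAR1A at 0.11 and SAR1B at 0.087.

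The wider machinery around the 9 factors changed in 5 genes of 137 tested in 7 groups named by function, where 1.49% of all genes tested were called. Each count of called genes in the groups is to be read against that share. An unadjusted edgeR p under 0.05 was found for 14.4% of all genes tested. In the groups with a called gene it was found for 21.1% (COPII), 36.8% (COPI), 25% (cargo receptors) and 36.4% (store-operated calcium entry), which are descriptions. Of 19 genes of the COPII coat and ER exit sites 1 rose (SEC24A), 0 fell and 18 did not pass. The estimate was positive for 17 of them, with a median log2 fold change of 0.058, and for 10885 of all 21679 genes tested, with a median of 0.001, so the count is a description and no test of the group. Among the 17, TRAPPC3 (8e-04) and PDCD6 (1e-04) lay at about 0. SEC22B, a SNARE of ER to Golgi vesicles, had 727 ± 4.25 CPM with the STING plasmid and 666 ± 10.5 CPM with the control plasmid (SD, n = 3, edgeR adjusted p = 0.126). The outer coat subunit SEC31A had a log2 fold change of 0.15 (SE 0.054, adjusted p = 0.192 in edgeR).

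Of 19 genes of the COPI coat and its ARF machinery 1 rose, 1 fell and 17 did not pass, with a median of 0.013. Both called genes were ARF GTPases, small G proteins of vesicle budding, and they moved in opposite directions. ARF4 had 649, 656 and 626 CPM in STING plasmid libraries, against 558, 553 and 577 CPM in control plasmid libraries, a log2 fold change of 0.19 (SE 0.041, adjusted p = 0.0291 in edgeR). ARF5 had 61.9, 54.7 and 53.3 CPM in STING plasmid libraries, against 66.4, 67.3 and 68.1 CPM in control plasmid libraries, a log2 fold change of −0.25 (SE 0.059, adjusted p = 0.0485 in edgeR). ARF5 did not pass with offsets for GC content and length (adjusted p = 0.0508). The Golgi SNARE GOSR1 had a log2 fold change of 0.17 (SE 0.047, adjusted p = 0.0809 in edgeR).

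Of 20 cargo receptors of the early secretory pathway 0 rose, 1 fell and 19 did not pass, with a median of −0.039. ERGIC1, a membrane protein of the intermediate compartment, fell to 129, 117 and 122 CPM in STING plasmid libraries, against 142, 142 and 139 CPM in control plasmid libraries (log2 fold change −0.20, SE 0.048, adjusted p = 0.0473 in edgeR). LMAN2 and TMED9 had log2 fold changes of −0.14 and −0.15 (edgeR adjusted p of 0.210 and 0.216). Of 11 genes of store-operated calcium entry, the process that STIM1 drives, 0 rose, 1 fell and 10 did not pass, with a median of −0.041. ORAI3, a plasma membrane calcium channel that STIM1 opens, fell to 11.96, 11.96 and 13.3 CPM in STING plasmid libraries, against 17.1, 17.1 and 16.5 CPM in control plasmid libraries (log2 fold change −0.44, SE 0.087, adjusted p = 0.0188 in edgeR). ORAI2 and the calcium release channel ITPR2 had log2 fold changes of −0.18 and −0.23 (edgeR adjusted p of 0.116 and 0.135). ARF4, ARF5 and ERGIC1 kept their calls without STING plasmid library 1 and lost them without each of the other 5 libraries, and ORAI3 kept its call without STING plasmid library 1 or 3 only. With total-count scaling ARF5 and ERGIC1 did not pass (adjusted p of 0.0692 and 0.0725), ARF5 did not pass in limma-voom (adjusted p = 0.0513), and limma on FPKM called 0 of the 5.

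In the main edgeR fit 0 genes were called in the remaining groups. These hold 18 rhomboid, translocon and exocyst genes, 27 enzymes that add or remove palmitate and 23 other factors of STING traffic and turnover. In these groups 3, 1 and 5 genes had an unadjusted edgeR p under 0.05, or 16.7%, 3.7% and 21.7% beside 14.4% of all genes. Their medians were −0.051, −0.031 and −0.048. Among the first, the exocyst subunits EXOC4, EXOC7 and EXOC8 had log2 fold changes of −0.15, −0.13 and 0.13. Among the palmitoyltransferases ZDHHC12, ZDHHC1 and ZDHHC16 had −0.29, −0.33 and −0.10, and ZDHHC12 came closest to the threshold (edgeR adjusted p = 0.0802). ZDHHC12 was called in 3 of 18 alternatives. These were DESeq2 (adjusted p = 0.0275) and edgeR with a filter of 1 CPM in 3 libraries (adjusted p = 0.0360) or with no filter (adjusted p = 0.0481). Among the last, the Golgi protein ACBD3 had 0.17, the sterol sensor escort SCAP −0.17 and YIPF5, a membrane protein of ER to Golgi traffic, 0.13.

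**Figure D5:**
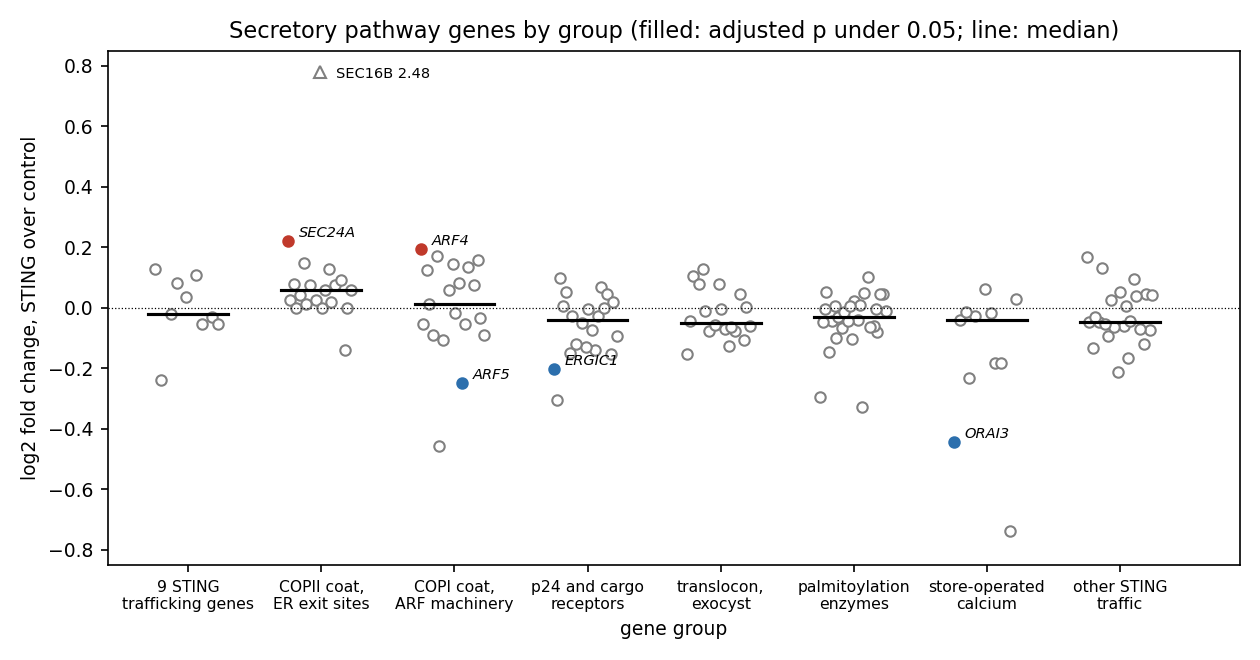
Log2 fold change, STING plasmid over control plasmid, of each tested gene of the 9 factors and of 7 related groups; lines are medians, filled points passed an adjusted p of 0.05 in edgeR, and a triangle marks SEC16B, whose value of 2.48 lies beyond the axis. SEC24A and ARF4 are filled above 0, and ARF5, ERGIC1 and ORAI3 below 0. SEC16B averaged only 0.331 CPM with the STING plasmid and 0.0574 CPM with the control plasmid (SE 1.23, edgeR adjusted p = 0.407).

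Some genes outside these groups followed the same pattern over the 6 libraries. Over 10091 genes compared with SAR1A, the highest Pearson correlations of log2 CPM were those of UBE2B (r = 0.997) and ARAP2 (r = 0.994). For SAR1B they were those of UAP1 (r = 0.997) and WDR43 (r = 0.997), and for RHBDF2 those of NIT2 (r = 0.998) and SOS2 (r = 0.985). RHBDF2, NIT2 and SOS2 were each highest in control plasmid library 1 (12.2, 28.2 and 37.0 CPM), so these 2 correlations rest largely on 1 library. Each correlation runs over the same 6 libraries, which differ in depth and in their slope on GC content. Each is the highest of many and is a description.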

How the data were processed

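RNA was isolated with Trizol and made into libraries with an Illumina TruSeq kit, per the labels' protocols. The submitters' processing notes name Bowtie 0.12.2, and the sources used here do not give the counting program, annotation, genome build or use of strand. The deposited tables hold read counts per Ensembl gene, whole numbers used as they stand, and the authors' FPKM values, used for levels between genes and in 2 alternatives. GENCODE v29 (GRCh38) held 40903 of the 42307 identifiers, and 89.8% of those had the same start or end to within 1 base.

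The counts were fitted in edgeR 4.0.16 (R 4.3.3) with filterByExpr, TMM scaling and robust quasi-likelihood dispersion, 3 against 3 libraries with no covariate, and two-sided p-values were adjusted by Benjamini-Hochberg at 0.05. CPM uses TMM-scaled library sizes, except the values per kilobase of the longest transcript and the floor of 3 counts, which use library totals. Standard errors are the log2 fold change over the square root of F, and intervals use them. Alternatives used DESeq2 1.42.0, limma 3.58.1 (voom, and log2(FPKM + 1) or log2(FPKM + 0.1)), other scalings and filters, GC and length offsets, overlapping models summed, the replicate number as a block, and each library left out. Chi-square per gene between replicates was 11.7 to 23.0, so no library was counted as a repeat.

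The 9 genes and the related groups were chosen with earlier results of these data known. Named are the 9 genes, STING1, the 3 genes of each of 7 groups with the smallest p, and, for each of the 3 of the 9 genes with the smallest p, the 2 genes with the most similar pattern (mean of at least 10 CPM). The result of 1 list of cell type markers is not reported here.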

Additional observations from a re-analysis of the deposited data

How the results depend on the processing

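Under each of 19 alternatives 0 of the 9 trafficking genes were called. SAR1A and SAR1B kept a positive estimate in all of them (0.11 to 0.16 and 0.080 to 0.17), as did TMED2 and COPA, and RHBDF2 (−0.31 to −0.11), SURF4 and ZDHHC3 kept a negative one. The 0.17 is from SAR1B summed with its overlapping models, which adds the counts of SEC24A. Values of SAR1B alone gave at most 0.14, with total-count scaling. SEC24C and STIM1 changed sign with total-count scaling (0.0085 and 1e-04), which moved the median of all genes by 0.030, and with GC and length offsets (0.023 and 0.035, with and without the replicate block). The difference in the SAR1A share ranged from −0.015 to 0.53 percentage points with 1 library left out. The count of all genes called, 324 (131 higher, 193 lower), was 686 (274 and 412) with a filter of 1 CPM in 3 libraries, 820 (337 and 483) with DESeq2, 14 (11 and 3) and 13 (10 and 3) with limma on log2(FPKM + 1) and log2(FPKM + 0.1), and 60 to 741 (34 to 260 and 26 to 481) with 1 library left out, with the highest count without STING plasmid library 1. Total-count scaling gave 246 higher and 138 lower, and GC and length offsets gave 268 higher and 200 lower. Same-numbered libraries correlated at 0.16, 0.102 and 0.023 in their deviations from the group means, and differently numbered ones at −0.133 to 0.058. By this measure 2 of 3 STING plasmid libraries correlated best with their own number. For STING plasmid library 3 the values with control plasmid libraries 2 and 3 were both 0.023. Whether the numbers mark a pairing was not tested. The labels name no shared culture or day, so the main fit used no pairing. With the replicate block 120 genes were called (55 and 65), and with offsets and block 99 (59 and 40), with 0 of the 9 in each. The block also ended the calls of SEC24A, ARF4, ARF5, ERGIC1 and ORAI3 (edgeR adjusted p of 0.0605 to 0.145). Some named genes of the 7 groups that the main fit did not call were called in other settings. Over 18 alternatives, the 19 without the summed overlapping models, ZDHHC12 and GOSR1 were called in 3 each. SEC22B and ACBD3 were called in 2 each, TMED9, ORAI2 and SCAP in 1 each, and the rest in 0. DESeq2 called ZDHHC12, GOSR1, SEC22B and ACBD3 (adjusted p of 0.0185 to 0.0458). The cause of these shifts was not tested. Depth is lowest for RHBDF2, at 647 to 894 counts per library.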
